A study of Mus musculus with 18 samples.

Results

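F7, F10, Mcf2l and Pros1 are 4 of the 40620 rows of the deposited count table, picked by gene symbol. F7, F10 and Mcf2l lie side by side on mouse chromosome 8 and Pros1 lies on chromosome 16. They were chosen with their differences between times already known, so those differences are given as a description, with fold changes and standard errors but no test. The comparison of the hairpins with the control construct was not used in the choice and was tested.

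The RNA came from MC3T3-E1 cells, an established mouse preosteoblast line, with stable expression of 1 of 3 short hairpin constructs: shRcor2-18 or shRcor2-20, both made to silence the corepressor Rcor2, or the control shScramble. There were 2 samples of each construct at each of the times 0h, 24h and 7d, 18 libraries in all. Osteogenic medium contained 10 nM dexamethasone, a synthetic glucocorticoid, plus 5 mM beta-glycerophosphate and 50 µg/ml ascorbic acid. Serum was listed at 10% for every library. The protocols describe harvests at confluence and at 24 hours but not at day 7, and no label says whether a group's samples were grown apart, so p-values reflect a spread that may be technical only.

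Factor VII (F7), factor X (F10) and protein S (Pros1) are secreted plasma proteins whose glutamate residues are carboxylated in a reaction that needs vitamin K. Factor VII binds tissue factor and then activates factor X, which makes thrombin, while protein S is a cofactor of the anticoagulant protein C and also a ligand of the TAM receptor kinases Tyro3, Axl and Mertk. Factors VII and X are known mainly as products of hepatocytes, and protein S is made by more cell types. Mcf2l, also called Dbs or Ost, is of another kind: it is an intracellular guanine nucleotide exchange factor. It is set beside the coagulation genes here for its place in the genome.

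All 3 chromosome 8 genes are read from the same strand, in the order Mcf2l, F7, F10. In the GRCm38 annotation the end of Mcf2l and the start of F7 are 5.1 kb apart, and the end of F7 and the start of F10 are 1.5 kb apart. The sequences below are RefSeq promoter windows of GRCm38.p6, which run from 250 bases before to 50 bases after a gene's start, on the plus strand and from 5′ to 3′. They are shown because neighbouring genes with unlike values are compared. Capitals mark the GC box GGGCGG on either strand and, in F7, the letters CAAAGGTCA on the opposite strand. Mcf2l has 6 listed start sites, and the first is shown.
Mcf2l, chr8:12873556-12873855: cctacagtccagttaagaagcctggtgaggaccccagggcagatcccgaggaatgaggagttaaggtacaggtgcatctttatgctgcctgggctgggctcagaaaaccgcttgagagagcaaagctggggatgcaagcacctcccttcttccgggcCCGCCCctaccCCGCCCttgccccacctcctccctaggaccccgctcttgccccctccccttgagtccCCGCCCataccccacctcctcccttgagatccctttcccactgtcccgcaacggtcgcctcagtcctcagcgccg
F7, chr8:13025784-13026083: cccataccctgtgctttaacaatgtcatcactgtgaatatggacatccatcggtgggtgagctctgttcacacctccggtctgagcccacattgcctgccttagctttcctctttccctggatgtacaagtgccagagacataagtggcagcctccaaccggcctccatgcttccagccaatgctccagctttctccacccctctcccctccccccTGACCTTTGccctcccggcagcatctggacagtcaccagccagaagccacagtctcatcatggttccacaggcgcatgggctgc
F10, chr8:13037058-13037357: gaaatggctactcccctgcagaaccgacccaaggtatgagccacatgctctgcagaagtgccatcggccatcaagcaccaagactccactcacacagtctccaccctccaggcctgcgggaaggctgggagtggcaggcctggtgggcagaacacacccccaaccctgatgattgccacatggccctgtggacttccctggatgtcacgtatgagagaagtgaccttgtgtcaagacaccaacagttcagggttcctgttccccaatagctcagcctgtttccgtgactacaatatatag
Pros1, chr16:62854057-62854356: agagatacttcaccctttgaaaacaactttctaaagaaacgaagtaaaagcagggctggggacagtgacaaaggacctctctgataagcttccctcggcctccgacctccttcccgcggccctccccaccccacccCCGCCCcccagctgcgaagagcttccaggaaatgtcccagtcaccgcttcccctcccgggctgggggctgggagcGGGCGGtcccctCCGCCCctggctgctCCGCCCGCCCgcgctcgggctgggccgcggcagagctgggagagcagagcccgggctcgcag

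The windows differed in their GC boxes. Pros1 held 5 GC boxes, of which the last 2 overlap, and the Mcf2l window shown held 3, while F7 and F10 held none. The Mcf2l window shown held the most of its 6, and the others held 1, 0, 1, 0 and 0 in order. A GC box was found in 35.66% of the 32851 mouse promoter windows of the same table. The 9 letters CAAAGGTCA, part of the direct repeat that several nuclear receptors bind, were looked for only after the sequences had been read. They were found in F7 from base 217 of the window, in no window of the other 3 genes, and in 0.48% of all windows. The other 4 motifs, searched on both strands, had no match in any window of the 4 genes, all 6 of Mcf2l included. These were the palindromic glucocorticoid receptor element (0.47% of all windows), CAAAGTCCA for HNF4 (0.47%), TTGCNNAA for C/EBP factors (10.8%) and the TATA box TATAAA (13.62%). A match or its absence describes these letters in these windows only.

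Several features of the data bear on every value below. First, row names and reads are out of step over much of the deposited table, so a row was read as the gene it names only in 2 stretches, 611 coding rows of chromosome 16 and 100 of chromosome 8, in which 16 of 17 members of families expressed in nearly all cells held at least 20 counts per 1000000 counts of the library (CPM), against 18.12% of such members outside them. All 4 genes lie in these stretches. The chromosome 8 stretch contained only 1 such family member. It was kept on a log likelihood ratio of 7.3 for its rows being in step, against 52.95 for chromosome 16 and 6.49 for a stretch of chromosome 18 that was not used, so the names F7, F10 and Mcf2l are less secure than Pros1. Second, sample 1 of each construct at 0h stood apart from sample 2, with a chi-square of 108 to 278 per degree of freedom between the samples of a construct, against 18.8 to 29.6 at 24h and 7d. These 3 libraries were left out, so that 0h rests on 3 libraries, and 24h and 7d on 6 each, with total counts of 3504808 to 6139315. Lastly, at 24h and 7d every library was nearest to one of another construct. The pairs were the same at both times: shRcor2-18 sample 1 with shScramble sample 1, shRcor2-20 sample 1 with shScramble sample 2, and shRcor2-18 sample 2 with shRcor2-20 sample 2. These nearest pairs had a chi-square of 12.9 to 16.9 per degree of freedom. At 0h the left-out libraries shScramble sample 1 and shRcor2-18 sample 1 were closer still, at 1.89. The row named Rcor2 lies on chromosome 19. It had 201 to 297 CPM in the 12 hairpin libraries and 202 to 268 CPM in the 6 shScramble libraries. In the fit, its hairpin difference over all times was 0.10 ± 0.06 (log2, SE), so it was not lower. A stretch of chromosome 19 from Ighmbp2 to Eef1g, with 211 coding rows, scored 30.41, and 8 of its 12 family members held 20 CPM. This stretch passed the same scoring, above the 7.3 of chromosome 8, but was not used, as names were read only on the chromosomes of the 4 genes. The silencing was therefore not checked here. If the row named Rcor2 does hold that gene, its RNA was not lower in the libraries labelled as hairpins. Nothing read here checks that a library holds the construct its label names, and an exchange of construct labels was not tested. Values by construct below are those of the labels. None of the 11 osteoblast markers listed lies in the stretches either, so the cell type label was not checked.

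F7 was nearly absent at 0h and was higher at each later time. In the 0h libraries it had 0.44 CPM in shRcor2-18, 0.256 CPM in shRcor2-20 and 0.495 CPM in shScramble, which are only 2, 1 and 2 counts. At 24h the lowest of the 6 libraries had 4.86 CPM, the median was 6.70 CPM and the highest had 8.60 CPM. At 7d the lowest had 11 CPM, the median was 24.6 CPM and the highest had 29.4 CPM. No library of one time overlapped with any of another; 2.03% of all rows tested had every 7d library above every 24h library.

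In the fit across all rows, F7 was higher by 4.04 ± 0.49 (log2, SE) at 24h than at 0h, a 16.4-fold difference, and by 5.73 ± 0.51 at 7d than at 0h, a 53-fold difference. For 7d against 24h the log2 difference was 1.69 ± 0.29. Because the 0h level rests on 5 counts in all, the ratio of pooled CPM carries a wide counting interval: 17-fold with a 95% interval of 7.17 to 53 for 24h against 0h, and 53.6-fold with 22.8 to 166 for 7d against 0h. For 7d against 24h, which rests on 531 and 190 counts, it was 3.15-fold with an interval of 2.66 to 3.73. These intervals cover counting error only. In the 3 libraries left out at 0h, F7 had 1.25 CPM in shRcor2-18, 0.306 CPM in shRcor2-20 and 1.56 CPM in shScramble, still below every later library. With these libraries in the fit the log2 difference was 3.31 at 24h against 0h and 5.02 at 7d against 0h.

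Mcf2l followed another course: it was higher at 24h, and its 7d values overlapped with those of 24h. At 0h it had 6.61 CPM in shRcor2-18, 9.45 CPM in shRcor2-20 and 9.16 CPM in shScramble. At 24h the lowest library had 59.1 CPM, the median was 64.7 CPM and the highest, shScramble sample 2, had 89.3 CPM. At 7d the lowest had 40.5 CPM, the median was 58.3 CPM and the highest had 76.5 CPM. All 12 later libraries lay above all 3 of 0h, while the ranges of 24h and 7d overlapped. The fitted log2 differences were 3.01 ± 0.25 for 24h against 0h, 2.82 ± 0.25 for 7d against 0h, and -0.19 ± 0.17 for 7d against 24h. With the 3 left-out libraries, which had 12.7 CPM in shRcor2-18, 11.1 CPM in shRcor2-20 and 15.6 CPM in shScramble, the differences from 0h were 2.60 at 24h and 2.43 at 7d. Rows in which every 24h library lay above every 0h library made up 4.17% of all 12930 rows tested, and those with every 7d library above every 0h library 6.33%. Since F7 and Mcf2l were chosen for these differences, nothing is read from their place among those rows.

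F10 showed no such difference that this depth could detect. It had 9 counts over the 15 libraries and none in 9 of them, and its highest count in a library was 2. By time, the summed counts were 1 at 0h, 3 at 24h and 5 at 7d, or 0.0800, 0.108 and 0.202 CPM pooled, with 95% Poisson intervals of 0.00203 to 0.446, 0.0222 to 0.314 and 0.0655 to 0.471 CPM. A count of 3, the limit that a count of 0 allows, corresponded to 0.489 to 0.856 CPM depending on the library. F10 did not pass the filter on low counts and has no fitted value.

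Pros1 was abundant at all times. It had 238 CPM in shRcor2-18, 246 CPM in shRcor2-20 and 184 CPM in shScramble at 0h. At 24h it ranged from 186 to 255 CPM with a median of 219 CPM, and at 7d from 208 to 321 CPM with a median of 281 CPM. The ranges of the 3 times overlapped. The log2 difference was -0.03 ± 0.17 for 24h against 0h, 0.32 ± 0.18 for 7d against 0h and 0.35 ± 0.14 for 7d against 24h. The 3 left-out 0h libraries had 274 CPM in shRcor2-18, 287 CPM in shRcor2-20 and 309 CPM in shScramble, above every 24h library. With them in the fit the differences from 0h were -0.28 at 24h and 0.08 at 7d. Whether more RNA per cell or more cells of one kind stand behind any of these differences cannot be told apart in bulk RNA.

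**Figure D1:**
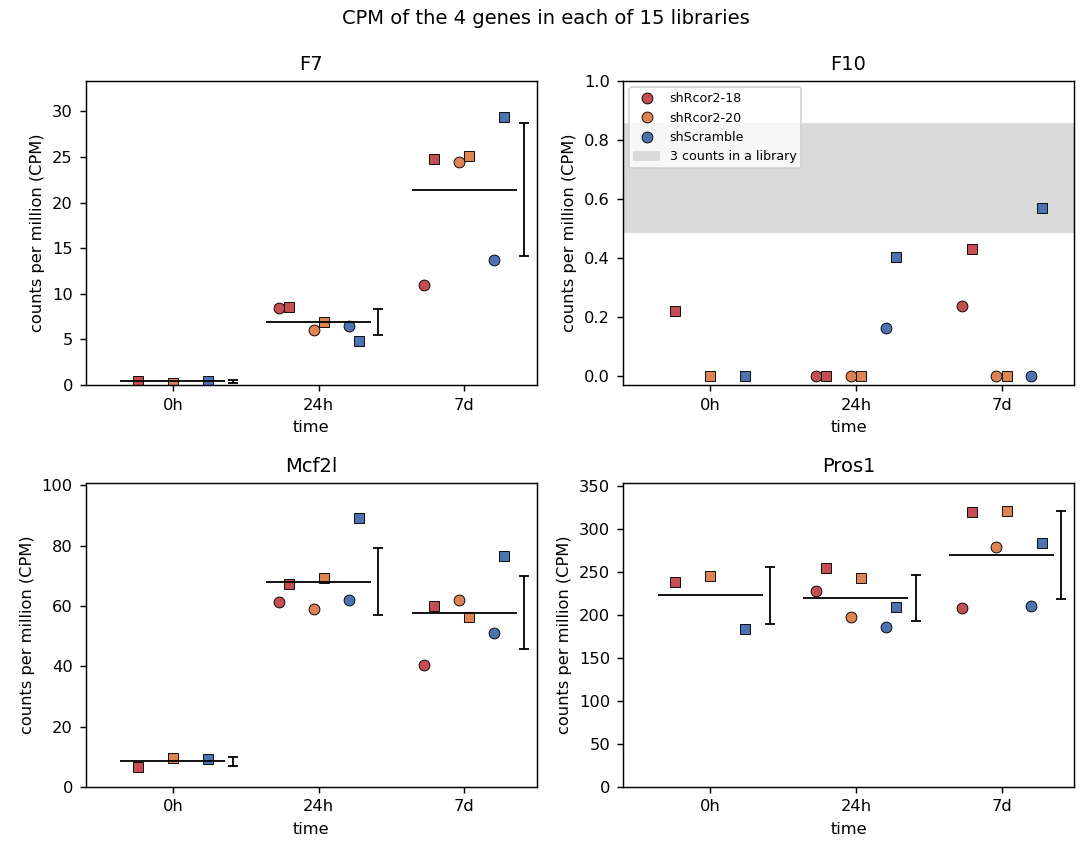
CPM (vertical axes, linear) of F7, F10, Mcf2l and Pros1 in the 15 libraries used, by time. Circles are sample 1 and squares sample 2, colours are the constructs, black lines are means and bars SD over the libraries of a time (not drawn for F10), and the grey band spans the CPM of 3 counts per library; F7 steps up at 24h and again at 7d, Mcf2l only at 24h, Pros1 overlaps across times, and F10 stays at 0 to 2 counts.

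Per kilobase of exon, the order of the 4 genes changed with time. Pros1 was highest throughout, at 54.5 ± 8.20, 53.8 ± 6.49 and 66.1 ± 12.5 CPM per kb at 0h, 24h and 7d (SD; n = 3, 6 and 6). Mcf2l had 0.659 ± 0.123, 5.33 ± 0.869 and 4.53 ± 0.942 CPM per kb, and F7 had 0.214 ± 0.0676, 3.71 ± 0.772 and 11.5 ± 3.92 CPM per kb. F10 had a mean of at most 0.0757 CPM per kb. The level of F7 over that of Mcf2l per kb ran from 0.374 to 0.944 in the 6 libraries at 24h and from 1.84 to 3.04 in the 6 at 7d, so that F7 was the lower of the pair in every 24h library and the higher in every 7d library. This order depends on the exon lengths taken, 1.86 kb for F7 and 12.76 kb for Mcf2l, which counts every annotated Mcf2l exon.

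The ratio of the raw counts is free of library scaling, and its change between times is free of gene length. At 0h there were 2.7 to 6.67 F7 counts for each 100 Mcf2l counts. At 24h there were 13.8 and 12.8 in the shRcor2-18 libraries, 10.2 and 9.94 in shRcor2-20, and 10.5 and 5.44 in shScramble. At 7d there were 27.2 and 41.2 in shRcor2-18, 39.4 and 44.4 in shRcor2-20, and 26.8 and 38.4 in shScramble. Every 7d library was thus above every 24h library, and F7 and Mcf2l did not keep one proportion between those times in these libraries. Both genes were chosen with their differences between times known, so this is a description only. The share of gene pairs with such a lack of overlap was not computed. The 0h and 24h ranges overlapped.

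**Figure D2:**
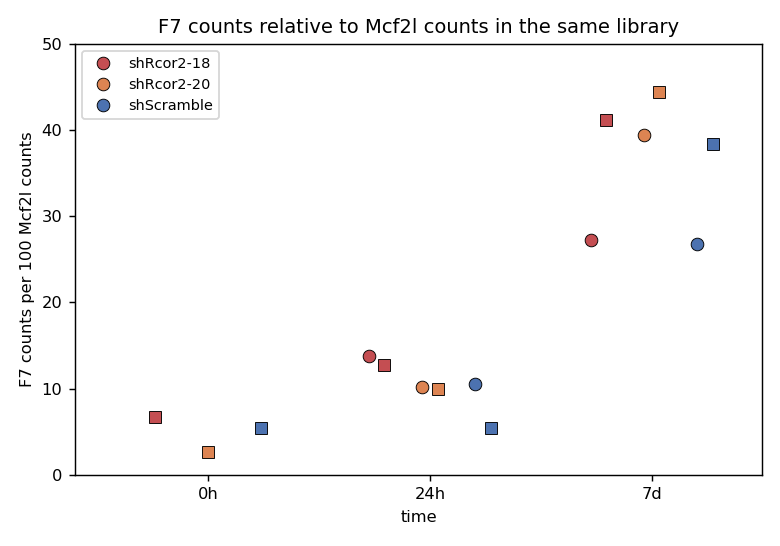
F7 counts for each 100 Mcf2l counts in the same library (vertical axis) at 0h, 24h and 7d. Circles are sample 1, squares sample 2, and colours the constructs; the 6 libraries at 7d lie between 26.8 and 44.4, above the 5.44 to 13.8 of the 6 at 24h.

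The coding genes on either side showed no difference of the size seen for Mcf2l and F7. Mcf2l and F7 were chosen with their differences known and these genes were not, so the contrast is a description only. Of the 10 coding rows before Mcf2l and the 10 after F10, 11 had enough counts for the fit. For 24h against 0h, 0 of these 11 passed an adjusted p of 0.05 in edgeR's quasi-likelihood test, and their log2 differences ran from -0.50 to 0.41. Among all rows tested, 1.85% passed. Of the same 11, 2 had an unadjusted p under 0.05, Atp11a and Ankrd10, and DESeq2 called both. The nearest gene before Mcf2l, Atp11a, a phospholipid flippase, had 384 ± 41.4 CPM at 7d and 635 ± 43.4 CPM at 0h (SD, n = 6 and 3). Its log2 difference was -0.69 ± 0.10 (adjusted p = 0.00692), so it fell where Mcf2l was higher. Beyond F10 the first gene is Proz, which encodes the vitamin K-dependent protein Z and had a mean of at most 0.394 CPM at any time. Next to it lie Pcid2, a subunit of a nuclear mRNA export complex, Cul4a, a ubiquitin ligase scaffold, and Lamp1, a lysosomal membrane protein. Pcid2 had 160, 158 and 159 CPM at 0h, 24h and 7d, Cul4a 723, 777 and 753 CPM, and Lamp1 3821, 3947 and 3253 CPM.

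For 7d against 0h, 3 of the 11 neighbours passed in edgeR's test, against 5.76% of all rows, and DESeq2 called these and Dcun1d2. Ankrd10 rose by 0.87 ± 0.11 (log2; adjusted p = 0.0036) and Tmco3, a predicted cation exchanger, by 0.98 ± 0.21 (adjusted p = 0.034), and Atp11a fell as given above. Ankrd10 had a log2 difference of only 0.06 with all 18 libraries (adjusted p = 0.93), and Tmco3 lost its call in 8 of 15 fits with a library left out and with the replicate block within construct (adjusted p = 0.126). For 7d against 24h edgeR called only Ankrd10 (log2 0.46 ± 0.09, adjusted p = 0.0372), against 2.34% of rows, and DESeq2 called Ankrd10 and Tmco3. In edgeR 10 of 15 fits with a library left out lost that call, as did the block (adjusted p = 0.0661). The largest rise among the 11 neighbours in any of these 3 comparisons was the 0.98 of Tmco3, against 2.82 for Mcf2l and 5.73 for F7 in the same comparison. Among all rows tested, 10.85% had a log2 difference over 2 in size for 24h against 0h and 13.33% for 7d against 0h. With 11 neighbours, a lack of such differences says little about the block.

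**Figure D3:**
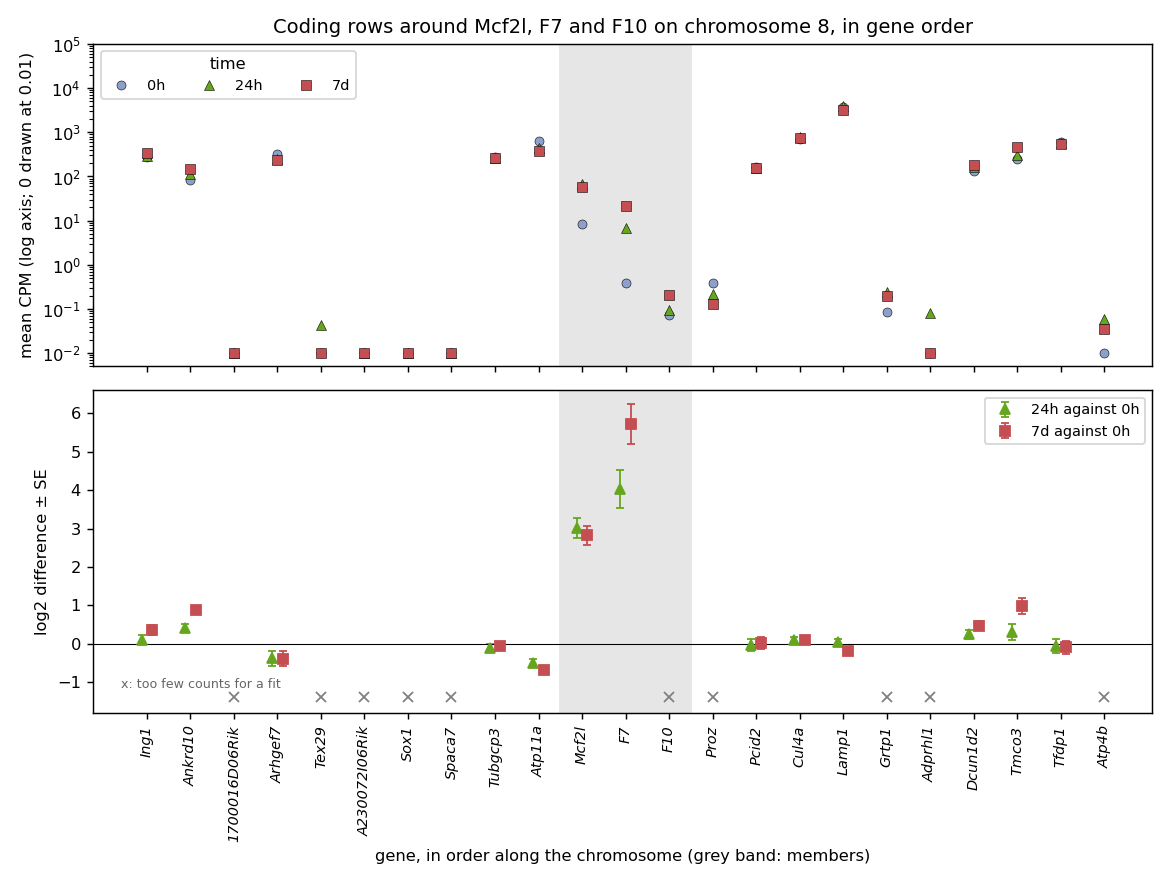
Coding rows around Mcf2l, F7 and F10 in gene order, with mean CPM at each time on a log axis above and log2 differences from 0h with SE below. The grey band holds the 3 genes and crosses mark rows with too few counts for a fit; Mcf2l and F7 stand at 2.82 to 5.73, and the fitted neighbours between -0.69 and 0.98.

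Rows without a protein product in the same interval gave little. In all, 5 such rows lie in or next to Mcf2l and F7, and 2 of them, Gm15347 and Gm15353, are annotated on the strand opposite to Mcf2l and had enough counts for a fit. Gm15347 had a mean of 4.25, 4.76 and 3.61 CPM at 0h, 24h and 7d, and its log2 difference for 24h against 0h was 0.86 ± 0.41 (adjusted p = 0.485 in edgeR's test). Whether the counting used strand is not given in the sources used here, so reads of Mcf2l and of these antisense rows cannot be told apart where they overlap. The processed pseudogene Gm15352, between Mcf2l and F7, had 0 counts in all 15 libraries.

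Around Pros1, 11 of 20 neighbouring coding rows were fitted, and for 24h against 0h 0 passed in edgeR's test, against 1.85% of all rows, 0 at an unadjusted p under 0.05, and 0 in DESeq2 (log2 -0.10 to 0.37). The genes next to it hardly differed: Arl13b, a ciliary GTPase, had 98.2, 97.5 and 99.9 CPM at 0h, 24h and 7d, and Stx19, a syntaxin, had 6.02, 7.60 and 7.31 CPM. Epha3, the ephrin receptor on its other side, was at 0 in every library used. For 7d against 0h, Crybg3 (log2 1.79 ± 0.19, adjusted p = 0.00184) and Riox2 (0.70 ± 0.13, adjusted p = 0.0179), a ribosomal oxygenase that the table names Mina, rose in edgeR's test, 2 of 11 against 5.76% of all rows. Both also rose for 7d against 24h, against 2.34% of all rows, with log2 differences of 1.55 ± 0.15 and 0.59 ± 0.10. DESeq2 called the same 2 in each of these comparisons. Riox2 lost its call in 2 of 15 fits with a library left out for 7d against 0h and in 9 of 15 for 7d against 24h, and Crybg3 in none of either. With the block, Riox2 had an adjusted p of 0.0937 for 7d against 0h and of 0.0818 for 7d against 24h. Over 25 alternatives its log2 difference ran from 0.26 to 0.93 for 7d against 0h and from 0.51 to 0.65 for 7d against 24h. Its adjusted p in edgeR or DESeq2 reached 0.506 and 0.493 in these comparisons.

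Among the 6 libraries of 7d, F7, Pros1 and Mcf2l were lowest in the same libraries. F7 had 11 CPM in shRcor2-18 sample 1 and 13.7 CPM in shScramble sample 1, and 24.5 to 29.4 CPM in the other 4. Pros1 had 208 and 210 CPM in the same libraries, against 279 to 321 CPM in the others. Mcf2l had 40.5 and 50.9 CPM there, against 56.5 to 76.5 CPM. These libraries are 1 of the pairs named above that were nearest to each other over all rows. At 24h the same labels were not the lowest for F7, with 8.44 CPM in shRcor2-18 sample 1 and 6.52 CPM in shScramble sample 1 within a range of 4.86 to 8.60 CPM. For Pros1 at 24h, shScramble sample 1 was the lowest library, at 186 CPM, and shRcor2-18 sample 1 had 228 CPM. For Mcf2l at 24h the same labels came next above the lowest, 59.1 CPM, with 61.4 CPM in shRcor2-18 sample 1 and 62.1 CPM in shScramble sample 1.

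Between the libraries labelled as hairpins and those labelled shScramble, no difference was found for any of the 3 fitted members. The comparison sets hairpins against the control only if the construct labels are right. This was not checked here, and the pairs of nearest libraries above bear on it. Over all times the log2 difference was -0.02 ± 0.25 for F7, -0.18 ± 0.18 for Mcf2l and 0.31 ± 0.14 for Pros1, with adjusted p of 1.0, 0.922 and 0.782 in edgeR's quasi-likelihood test. The 95% intervals ran from -0.63 to 0.59 for F7, from -0.61 to 0.24 for Mcf2l and from -0.05 to 0.66 for Pros1. The SE is taken from the difference and its test statistic and is unsteady near 0. For F7 over all times it ran from 0.08 to 0.57 over the settings, so the F7 interval is not a firm bound. F7 at 7d had 11, 24.8, 24.5 and 25.1 CPM in the hairpin libraries and 13.7 and 29.4 CPM in shScramble. Mcf2l at 24h had 61.4, 67.3, 59.1 and 69.3 CPM in the hairpin libraries and 62.1 and 89.3 CPM in shScramble. Pros1 at 24h had 228, 255, 198 and 243 CPM in the hairpin libraries and 186 and 209 CPM in shScramble. At 24h and 7d the groups overlapped for each of the 3 genes. At 0h, with 2 hairpin libraries and 1 of shScramble, a lack of overlap means only that the lone library was not between the other 2. This held for Pros1 (238 and 246 CPM in the hairpin libraries, 184 CPM in shScramble). It also held for F7 (0.44 and 0.256 CPM against 0.495 CPM), where it rests on 2 and 1 counts against 2. The share of all rows with such a lack of overlap was not computed, so nothing is read from it. Once the 3 left-out 0h libraries are counted too, both genes overlapped.

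At single times the log2 differences of hairpins from shScramble were, for F7, -0.46 ± 0.91 at 0h, 0.40 ± 0.43 at 24h and 0.00 ± 0.42 at 7d. For Mcf2l they were -0.15 ± 0.39, -0.22 ± 0.25 and -0.19 ± 0.25, and for Pros1 0.46 ± 0.31, 0.24 ± 0.21 and 0.22 ± 0.21. None passed, the smallest adjusted p being 0.764, and none had an unadjusted p under 0.05 in edgeR or in DESeq2. For the change of the difference between 24h and 7d, the values were -0.40 ± 0.60 for F7, 0.03 ± 0.36 for Mcf2l and -0.02 ± 0.30 for Pros1, each with an adjusted p of 1.0. The shRcor2-18 libraries alone differed from shScramble by 0.09 ± 0.43 for F7, -0.31 ± 0.20 for Mcf2l and 0.29 ± 0.16 for Pros1, and the shRcor2-20 libraries by -0.13 ± 0.40, -0.06 ± 0.20 and 0.33 ± 0.17. Among all rows tested, edgeR called 0.155% for the hairpins together at 0h, 0.0155% at 24h and 0.0387% at 7d. Averaged over the times, the share was 0.00773%. It called 0.101% for shRcor2-18, 0.0387% for shRcor2-20 and 0.0541% for the change between 24h and 7d. The call over all times is 1 row, with 840 at an unadjusted p under 0.05, and DESeq2 called 109.

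**Figure D4:**
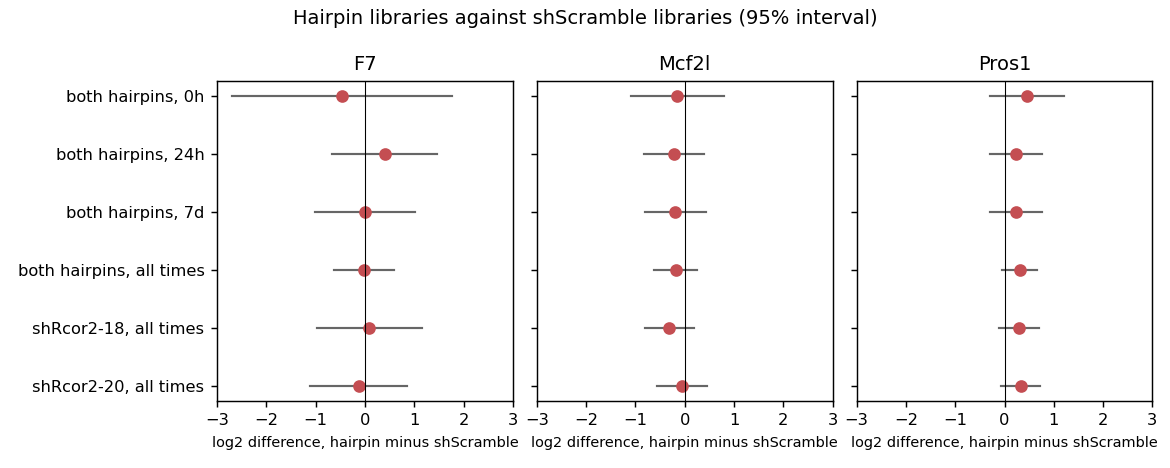
Log2 differences of hairpin libraries from shScramble libraries (horizontal axis) for F7, Mcf2l and Pros1, by time and by hairpin. Points are fitted values and lines 95% intervals, and every line crosses 0. The F7 line for all times rests on an SE that is unsteady near 0.

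Other genes of the coagulation and vitamin K system could be read only where the stretches hold them. Of 57 genes listed, 12 lie in the stretches, and 4 besides F7 and Pros1 were fitted: Gas6, Masp1, Fetub and Serpind1. In edgeR's test 0 of these 4 passed for 24h against 0h, against 1.85% of all rows, with 0 at an unadjusted p under 0.05 and 0 in DESeq2. For 7d against 0h 0 passed, against 5.76% of all rows, with 2 at an unadjusted p under 0.05 and 1, Gas6, in DESeq2. For 7d against 24h 1 of 4, Masp1, fell, against 2.34% of all rows passing in either direction, and DESeq2 called Masp1 and Gas6. Their median log2 differences were 0.18, -0.24 and 0.17 in these comparisons, against 0.06, 0.07 and -0.02 over all rows. Gas6, the other vitamin K-dependent ligand of the TAM receptors and a relative of protein S, had 2931 ± 720 CPM at 0h, 3930 ± 1184 CPM at 24h and 5772 ± 800 CPM at 7d (SD; n = 3, 6 and 6). Its log2 difference for 7d against 0h was 1.05 ± 0.26 with an adjusted p of 0.0568 in edgeR's test. With the replicate block within construct it was 1.27 ± 0.15 and passed (adjusted p = 0.0263). That p ran from 0.000332 to 0.261 over 25 other settings. Per kb, Gas6 at 7d had 2265 ± 314 CPM, against 66.1 ± 12.5 CPM for Pros1. Masp1, a protease of the lectin pathway of complement, had 238 CPM at 7d and 412 CPM at 24h, with a log2 difference of -0.74 ± 0.14 (adjusted p = 0.036), and 11 of 15 fits with a library left out lost that call.

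Other genes known as liver products were near 0, or had a course unlike that of F7. Hrg, histidine-rich glycoprotein, had no counts in any library used, and Ahsg and Kng1 reached at most 0.256 and 0.647 CPM. Fetub, a fetuin, had a mean of 21.2, 21.8 and 20.1 CPM at 0h, 24h and 7d. Serpind1, heparin cofactor II, varied between libraries from 0 to 29.6 CPM at 0h, from 0 to 27.3 CPM at 24h and from 0 to 41.7 CPM at 7d, and had no finite standard error. The 5 of 11 hepatocyte markers in the stretches summed to 22.5 to 48.8 CPM at 0h, 21.1 to 55.1 CPM at 24h and 5.89 to 76.5 CPM at 7d. The macrophage marker Cd86 and the endothelial marker Cldn5 were at 0 in every library used, the other endothelial marker in the stretches, Jam2, had 0.44 to 1.02 CPM at 0h, 0.222 to 1.51 CPM at 24h and 0 to 0.72 CPM at 7d, and the adipocyte genes Adipoq and Retn reached at most 0.647 CPM. The muscle ubiquitin ligase adaptor Fbxo40 had 6.17 to 10.4 CPM at 0h, 14.0 to 90.1 CPM at 24h and 14.3 to 68.8 CPM at 7d; its part in the result was not tested.

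Likeness of pattern was measured as Pearson's r of log2 CPM over the 15 libraries, among 413 coding rows of the stretches. The points share libraries and the step between times, so r is a description only. The rows most like F7 were Cblb, a ubiquitin ligase (r = 0.94; 90.2, 175 and 193 CPM at 0h, 24h and 7d), Trap1, a mitochondrial chaperone (0.933), and Col8a1, a collagen chain (0.92). Mcf2l ranked 11th for F7, with r = 0.856. The rows most like Mcf2l were Cebpd, a transcription factor of the C/EBP family (0.922; 67.0, 174 and 166 CPM), Cblb (0.909) and Pla1a, a phosphatidylserine-specific phospholipase (0.888; 4.47, 16.1 and 18.2 CPM). The rows most like Pros1 were the secreted glycoprotein Fstl1 (0.894), the microtubule minus-end protein Camsap3 (0.894) and the guidance receptor Robo2 (0.884). Pros1 had r = 0.513 with F7 and 0.222 with Mcf2l.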

How the data were processed

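RNA-seq counts of 18 libraries were analysed. The authors deposited raw counts per gene in 1 table of 40620 rows. The submitters' processing notes name FastQC, TopHat2 2.0.9, DESeq and DESeq2, and mm9 as the build. How reads were counted, by which annotation and with or without strand, is not given in the sources used here. Groups and times were taken from the sample titles. CPM here are counts over a library's total. Gene order, types and exon lengths came from GENCODE vM21 on GRCm38, and only promoter windows are given coordinates, on GRCm38.p6.

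The members, gene lists and settings were chosen with earlier results of these data known. Named rows were the members, the list genes fitted inside the checked stretches, the neighbouring coding rows, and the 3 rows most like each member. The stretches were found by scoring coding rows in order along the chromosome as detected at 20 CPM, with widely expressed families held out of the search.

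Counts were tested with edgeR 4.0.16 in R 4.3.3 (filterByExpr, TMM, robust quasi-likelihood fit of 9 group means, 15 libraries, 12930 rows, 6 residual degrees of freedom), with Benjamini-Hochberg adjustment over all rows and a threshold of 0.05. The lone 0h library of each construct takes its spread from the groups with 2. Comparisons of times average the 3 constructs. The SE from edgeR is the size of the log2 difference over the square root of the F statistic. It is unsteady where the difference is near 0. The 95% intervals use this SE and the t distribution with 6 degrees of freedom. DESeq2 1.42.0 served as an alternative. The edgeR step was tested on simulated counts.

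Same-numbered libraries of a construct deviated together between 24h and 7d, with correlations of 0.34 to 0.50 over 414 coding rows of the stretches, and of 0.03 to 0.06 over all rows tested. The highest with a 7d library of another construct was 0.33 for shScramble, 0.06 for shRcor2-18 and 0.26 for shRcor2-20. Same-numbered libraries of different constructs at 1 time had -0.04 to 0.37 over coding rows of the stretches. Such libraries were treated as paired only in an alternative fit, the replicate block within construct. This pairing comes from the values and not from the labels. Values given without mention of a block come from fits without it. The fit with this block has 3 residual degrees of freedom. It called 56, 432 and 169 rows for 24h against 0h, 7d against 0h and 7d against 24h, where the main fit, without it, called 239, 745 and 303. No protein sequences were used here. The result of 1 gene list is not reported here.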

Additional observations from a re-analysis of the deposited data

Results flagged for a closer look

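At 24h, Mcf2l in shScramble sample 2 was far from the other 5 libraries of that time. It had 89.3 CPM, and the next highest had 69.3 CPM, a gap of 0.665 of the whole range. About 1 in 20 groups would show such a gap by chance, and 6 groups of libraries were looked at. The same library had the lowest F7 level at 24h, 4.86 CPM, and hence the lowest count of F7 for each 100 Mcf2l counts, 5.44. Without this library the log2 difference of the hairpins from shScramble at 24h was 0.05 for Mcf2l, and -0.22 with it.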

How the results depend on the processing

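The differences between times kept their direction for F7 and Mcf2l in all 25 alternatives and for Pros1 at 7d, and Pros1 at 24h against 0h ran from -0.28 to 0.14. With all 18 libraries F7 moved to 3.31 (24h against 0h) and 5.02 (7d against 0h), and Mcf2l to 2.60 and 2.43. With single libraries left out, F7 ran from 3.81 to 4.32, 5.35 to 5.95 and 1.45 to 1.85 in the 3 comparisons of times, and Mcf2l from 2.90 to 3.15, 2.70 to 2.92 and -0.31 to -0.09. No hairpin difference of a member passed in any alternative, and several of these values near 0 changed sign. With the replicate block within construct, the values were 0.02 (F7, 7d), -0.10 (F7, shRcor2-18), 0.06 (F7, shRcor2-20), 0.21 (Mcf2l, 0h), 0.01 (Mcf2l, 7d), 0.07 (Mcf2l, all times) and 0.31 (Mcf2l, shRcor2-20); the block across constructs gave 0.03 for F7 at 7d. With the checked stretches only, F7 at 7d was 0.05 and the change of the Pros1 difference between 24h and 7d 0.04, which was 0.00 with no filter. With single libraries left out, F7 ran from -0.47 to 0.69 at 7d, -0.18 to 0.21 over all times, -0.15 to 0.32 for shRcor2-18, -0.29 to 0.10 for shRcor2-20 and -0.87 to 0.30 for the change between 24h and 7d. Mcf2l ran from -0.40 to 0.11 at 0h, -0.45 to 0.05 at 24h, -0.48 to 0.17 at 7d, -0.15 to 0.06 for shRcor2-20 and -0.26 to 0.39 for the change. Pros1 ran from -0.00 to 0.50 at 7d and -0.25 to 0.25 for the change.

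Counts of rows called for 24h against 0h, 7d against 0h and 7d against 24h were 239, 745 and 303. DESeq2 gave 582, 1427 and 1100, the checked stretches only, with fewer rows tested, 26, 112 and 71, and the replicate block within construct 56, 432 and 169. With all 18 libraries 7d against 24h had 38, and 489 once sample 1 at 0h had its own term. With single libraries left out the counts ran from 126 to 231, 310 to 760 and 120 to 307. The cause was not tested. The 0h level of F7 rests on 5 counts and that of F10 on 1, so depth limits what can be said of them at 0h. DESeq2 called 153, 30 and 30 rows for the hairpins at 0h, 24h and 7d, where edgeR called 20, 2 and 5.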
